A study of Homo sapiens with 2 samples.

Results

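The 8 genes described here encode the proteins that make, cut and bind hyaluronan: CEMIP, CEMIP2, HAS2, HAS3, HYAL1, HYAL2, HYAL3 and CD44. They were taken by symbol from the 19029 genes of the deposited table, and all 8 had a row. CEMIP was chosen by its ratio between these libraries, one of the lowest of the table, so that ratio is given below as a description. The other 7 joined it for their roles. RNA came from BT549, a line of human breast cancer cells that grows with a mesenchymal form. One culture overexpressed SNHG15, a long non-coding RNA that hosts a small nucleolar RNA, and the other carried the vector as control. Both were grown in the same serum-containing medium. The sources used here do not say whether the overexpressing cells were a pool or 1 clone. Each group is 1 library, so the differences have no replicate check and no test across libraries was possible. Where 2 values are given for a gene with no library named, the SNHG15 library comes first. The intervals are 95% intervals of counting error only, since 1 library per group holds no spread between cultures. Reads are not independent molecules, so the intervals may be too narrow even for counting error.

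Hyaluronan is a very long, unbranched sugar polymer that fills the space around cells. Synthases in the plasma membrane (HAS1, HAS2 and HAS3) polymerise it from UDP-sugars made in the cytosol and extrude it while it grows. CEMIP and CEMIP2 have been linked to its cutting outside the cell. The hyaluronidase HYAL2 cuts it at the cell surface, and HYAL1 in lysosomes after uptake. The genes of these proteins and HYAL3 are called cutting genes below, and the activity of their proteins was not measured. Other lysosomal enzymes remove the last sugars. Cells bind it mainly through CD44, a surface receptor abundant on mesenchymal breast cancer cells.

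The SNHG15 library held 16570496 counts and the vector library 20799017. SNHG15 itself was at 1997 CPM (counts scaled to library depth with TMM factors), against 23.3 CPM with the vector. The mesenchymal marker VIM was at 204.9 FPKM (a level per length and depth) against 188.6 FPKM with the vector, while the epithelial cadherin CDH1 had 12 and 11 counts. ESR1 and PGR had no row under those symbols in the deposited table. Genes averaging 1 CPM or more numbered 12934, and 602 of these had a ratio whose whole interval lay beyond 2-fold, 285 of them higher and 317 lower in the SNHG15 library. Scaling by library totals gave 366 higher and 237 lower. All 8 hyaluronan genes passed the 1 CPM minimum, the lowest being HAS2 at a mean of 3.32 CPM.

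CEMIP (ENSG00000103888) binds hyaluronan and is needed for its breakdown at the surface of fibroblasts and several cancer cells. Its gene lies on the plus strand of chromosome 15 at 80779343 to 80951776 (hg38). The sequence just before its start is shown because CEMIP carries the main difference, with that of HAS3, the more abundant synthase, for comparison. Both are the 250 bases before the RefSeq gene start on GRCh38.p14, plus strand, written 5′ to 3′, from chr15:80779120-80779369 and chr16:69107290-69107539. Capitals mark TATAAA and GGGCGG on either strand.
CEMIP: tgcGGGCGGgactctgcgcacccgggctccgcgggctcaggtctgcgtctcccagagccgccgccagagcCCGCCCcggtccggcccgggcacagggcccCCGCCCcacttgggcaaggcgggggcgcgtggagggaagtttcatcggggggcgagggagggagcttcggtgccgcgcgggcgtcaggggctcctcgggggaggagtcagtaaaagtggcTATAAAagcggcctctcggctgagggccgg
HAS3: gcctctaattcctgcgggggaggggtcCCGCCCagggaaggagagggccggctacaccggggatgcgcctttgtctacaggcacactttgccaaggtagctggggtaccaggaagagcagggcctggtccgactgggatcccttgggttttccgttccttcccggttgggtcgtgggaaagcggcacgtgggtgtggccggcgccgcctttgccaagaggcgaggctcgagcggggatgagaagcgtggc

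The CEMIP stretch held 1 TATAAA, 30 to 25 bases before the RefSeq start, and 3 GC boxes (GGGCGG). The HAS3 stretch held no TATAAA and 1 GC box. Over 27305 RefSeq promoters cut the same way, 11.1% held a TATAAA and 42.3% a GC box. Neither stretch held TGANTCA, the AP-1 motif (6.596% of promoters), or the NF-kappaB consensus (5.05%), on either strand. These are matches of letters in a short window, and nothing follows from them about which factor acts there. Bases that were G or C made up 74.4% of the CEMIP stretch and 66.0% of the HAS3 stretch, against a median of 58.0% over all promoters. The last 27 bases of the CEMIP stretch lie in an annotated exon of GENCODE 29. The TATAAA thus crosses the deposited CEMIP start at 80779343, and its place before the start holds only for RefSeq. The deposited HAS3 locus starts further upstream, at 69105564. RefSeq promoters matched 7 of the 8 genes by symbol.

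CEMIP had 42680 counts in the vector library and 2170 in the SNHG15 library, or 2137 CPM against 125.8 CPM. It was 17.0-fold lower in the SNHG15 library (interval 16.3 to 17.7). In the vector library it was among the most abundant messages, the 41st gene by count and the 150th by FPKM, just below the ferritin pseudogene FTH1P11 and just above MYL9, a myosin light chain. In the SNHG15 library it was the 1593rd gene by count and the 2289th by FPKM. Its share of all counts went from 0.205% (exact binomial interval 0.203% to 0.207%) to 0.0131% (0.0126% to 0.0137%). It was still well measured there, since a floor of 3 counts is 0.174 CPM. Fewer cells making a message and less message per cell cannot be told apart in bulk RNA.

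**Figure D1:**
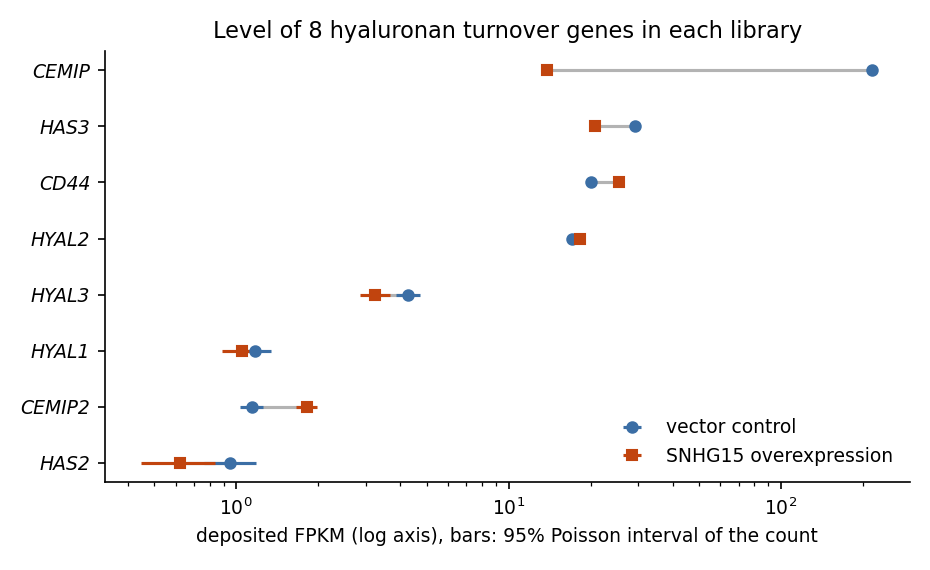
Level of the 8 genes in the vector (blue circles) and SNHG15 (orange squares) libraries as deposited FPKM on a log axis, with 95% Poisson intervals of the counts, ordered by the vector library. CEMIP moved from 216.2 to 13.8 FPKM, past HAS3, CD44 and HYAL2, while the other 7 genes stayed within 1.67-fold in scaled counts.

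CEMIP was the only one of the 8 beyond 2-fold. Over all genes compared 4.65% were beyond 2-fold, 2.20% higher and 2.45% lower. Its log2 ratio, computed with a prior count of 2 that draws in genes of few counts, was the 12th lowest of the 12934. Since CEMIP was chosen for this ratio, nothing is read from that count. A looser rule, the 1.5-fold rule, asked for an interval that excludes 1 and a ratio of at least 1.5-fold. By it 3 of the 8 were lower (CEMIP, HAS2 and HAS3) and 0 higher, against 12.2% lower and 13.3% higher over all genes. CEMIP was in this count by its choice, which leaves HAS2 and HAS3 of the other 7. The log2 ratios of the other 7 ran from −0.71 for HAS2 to 0.55 for CEMIP2, with a median of −0.28. The median of all genes was 0.02, and their 5th and 95th percentiles were −0.96 and 1.004, so each of the 7 lay inside that range. In the authors' deposited table CEMIP was called lower, with a log2 ratio of −3.97, and none of the other 7 was called.

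**Figure D2:**
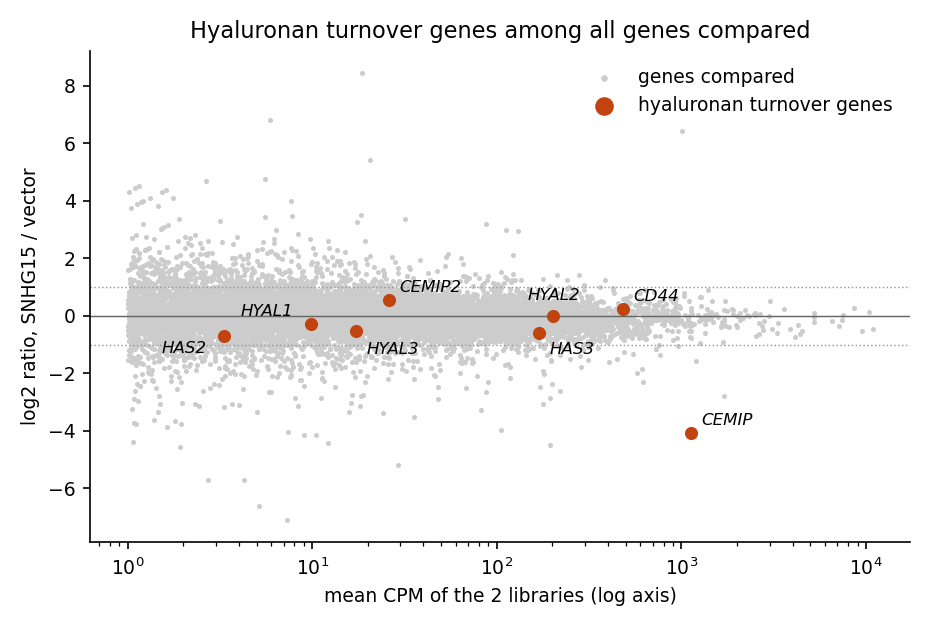
Log2 ratio (SNHG15 over vector) against mean CPM (log axis) for the 12934 genes compared (grey), with the 8 hyaluronan genes in orange and dotted lines at 2-fold. CEMIP stands at a log2 ratio of −4.09 among abundant genes, and the other 7 lie between −0.71 and 0.55.

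Of 7810 genes averaging 10 CPM or more, 4 had a lower log2 ratio than CEMIP. By the smallest difference in log2 ratio over the 2 libraries, the genes most like CEMIP were the kinase PAK6 (difference 0.04), SPOCD1 (0.13), the lipoprotein receptor LSR (0.33), the signal recognition particle RNA RN7SL2 (0.42) and the zinc-finger protein ZNF488 (0.56). These 5 were far less abundant in the vector library than CEMIP, between 20.0 CPM for PAK6 and 372.7 CPM for RN7SL2.

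The remaining genes that cut hyaluronan did not share this difference. CEMIP2 (ENSG00000135048), the transmembrane relative of CEMIP, had 535 counts with SNHG15 overexpression against 422 with the vector. It was 1.47-fold higher (1.29 to 1.67), so the 2 relatives differed in opposite directions. CEMIP2 was a minor message in both libraries, at 1.81 and 1.14 FPKM. HYAL2, a lipid-anchored hyaluronidase of the cell surface, had 3451 and 4036 counts, or 200.01 and 202.06 CPM, and its ratio of 0.990 had an interval (0.946 to 1.04) that included 1. HYAL1, the lysosomal hyaluronidase, had 154 and 217 counts and a ratio of 0.822 (0.664 to 1.01), which also included 1. HYAL3, a relative whose own activity is debated, had 245 and 408 counts and was 1.44-fold lower (1.22 to 1.69).

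Without CEMIP, the other 4 cutting genes together had nearly the same scaled level, 254.1 CPM with SNHG15 overexpression and 254.5 CPM with the vector. Most of this was HYAL2, at 200.01 and 202.06 CPM, while CEMIP2 was higher and HYAL3 lower. With CEMIP the sums were 379.9 and 2391 CPM. By FPKM, CEMIP made up 90.1% of the summed level of the 5 genes in the vector library and 36.1% in the SNHG15 library. HYAL2 went from 7.13% to 48.0% of the sum and so held the largest share in the SNHG15 library. Its own CPM hardly differed, so the shift in shares restates the CEMIP ratio. By counts, again from the vector to the SNHG15 library, CEMIP made up 89.4% (exact binomial interval 89.1% to 89.6%) and 33.1% (32.0% to 34.3%), and HYAL2 8.45% (8.20% to 8.70%) and 52.6% (51.4% to 53.9%). The FPKM values depend on the gene length the authors used. The length implied by a count and its FPKM was longer than the annotated exons of 7 of the 8 genes, for example 11.3 kb against 4.55 kb for HYAL2, and equalled them only for the single-transcript gene HAS2. With CPM per kilobase of the longest GENCODE transcript in place of FPKM, and in the same order, CEMIP held 81.05% and 20.8% and HYAL2 13.9% and 60.1% of the sum.

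**Figure D3:**
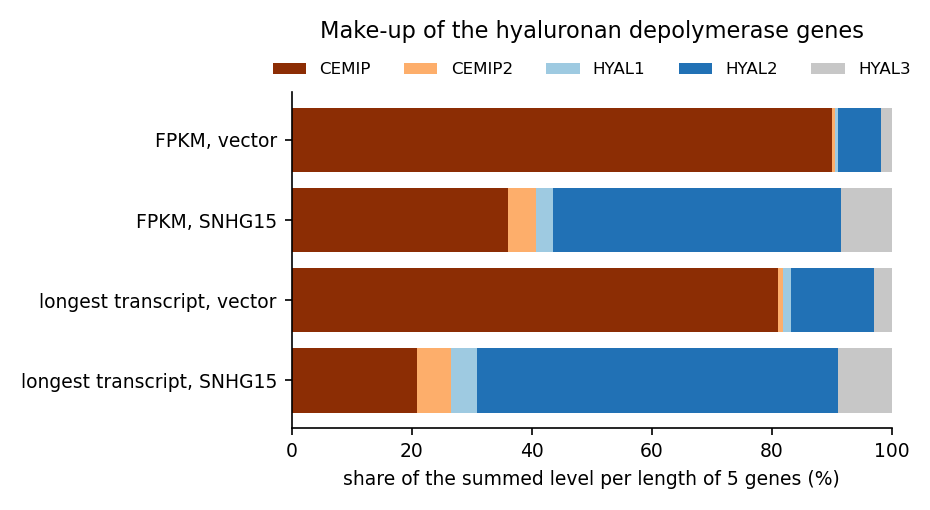
Share (%) of each of 5 hyaluronan-cutting genes in their summed level per length, for each library, by deposited FPKM (upper pair) and by CPM per kilobase of the longest transcript (lower pair). CEMIP takes the largest share in the vector library (90.1% by FPKM) and HYAL2 in the SNHG15 library (48.0%), by either length.

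HYAL1, HYAL2 and HYAL3 lie side by side on the minus strand of chromosome 3, between 50292831 and 50322906. Their summed counts were 3850 and 4661, a ratio of 0.956 (0.916 to 0.998). HYAL3 overlaps NAA80, an actin acetyltransferase gene, over 3020 bases and IFRD2 over 88 bases of the same strand, and HYAL2 overlaps TUSC2 over 2880 bases, so reads may be divided between them. The overlapping genes were lower, with ratios of 0.656 for NAA80 (0.578 to 0.745), 0.680 for IFRD2 (0.650 to 0.711) and 0.762 for TUSC2 (0.708 to 0.819). HYAL3, at 0.695, was thus close to the genes it overlaps, and HYAL2, at 0.990, was above its own. The nearest gene beyond the cluster, the tumour suppressor RASSF1, had a ratio of 0.749 (0.707 to 0.794). Within 500 kb of the cluster 22 genes were measured, with 0 beyond 2-fold (4.65% of all genes) and a median log2 ratio of −0.40, against 0.17 for the 739 genes of chromosome 3. Removing the GC trend brought the 22 genes to a median of −0.18.

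The synthases were lower. HAS3 (ENSG00000103044, chromosome 16, 69105564 to 69118719) makes shorter chains than HAS2 in cell culture studies. It had 2315 counts with SNHG15 overexpression against 4056 with the vector, and was 1.51-fold lower (1.44 to 1.59). This lies at the edge of the 1.5-fold rule and was lost with scaling by library totals, by FPKM with either pseudocount and with the GC trend removed, although HAS3 stayed lower with each. HAS2, the synthase best known in mesenchymal cells, had 43 and 83 counts and a ratio of 0.5998 (0.405 to 0.877). With so few counts its interval spans from near equality to more than 2-fold lower, and it too was not past 1.5-fold by FPKM with either pseudocount. HAS2-AS1, the antisense RNA that overlaps HAS2 on the opposite strand over 2098 bases, had 15 and 43 counts (ratio 0.404, 0.208 to 0.741). The sources used here do not say whether the libraries kept strand, so reads within such an overlap may not be assigned to the right gene. HAS3 overlaps CHTF8 of the opposite strand over 710 bases, and CHTF8 had a ratio of 0.864 (0.792 to 0.941). By FPKM, HAS3 was the main synthase in both libraries, at 20.8 and 29.02 FPKM against 0.619 and 0.952 for HAS2. HAS1 had no row under that symbol in the deposited table.

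CD44 (ENSG00000026508, chromosome 11, 35138870 to 35232402), the main receptor, had 8968 counts with SNHG15 overexpression against 8895 with the vector. Its scaled level was 519.8 and 445.3 CPM, 1.17-fold higher (1.13 to 1.20) in the SNHG15 library. It took the highest count of the 8 genes in the SNHG15 library and was second to CEMIP in the vector library. Gene-level counts do not separate its many splice forms, of which GENCODE 29 lists 39 transcripts.

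By FPKM the order in the vector library was CEMIP, HAS3, CD44, HYAL2, HYAL3, HYAL1, CEMIP2 and HAS2. The counting intervals of HYAL1 (1.02 to 1.34 FPKM), CEMIP2 (1.03 to 1.25) and HAS2 (0.759 to 1.18) overlapped, so the last 3 places are not separated. The order in the SNHG15 library was CD44, HAS3, HYAL2, CEMIP, HYAL3, CEMIP2, HYAL1 and HAS2. There no neighbouring intervals overlapped, though those of HAS3 (20.0 to 21.7) and HYAL2 (17.8 to 19.0) and of HYAL1 (0.888 to 1.23) and HAS2 (0.448 to 0.834) came close. With the longest transcript as length, CD44 came second, above HAS3, in the vector library, and HYAL2 stood above HAS3 in both libraries.

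Other genes were taken from 9 lists of the pathway and its wider setting, in which 40 genes besides the 8 were measured. Of these 40, 7 were linkers or sheddases of CD44, 4 splicing regulators and 14 transcription factor subunits. Those were not listed as genes that make, cut or bind hyaluronan, so the shares below are not of the pathway alone. By the 1.5-fold rule 8 of the 40 were higher and 4 lower (30.0%, against 25.5% of all genes). Beyond 2-fold, 2 were higher and 2 lower (10.0%, against 4.65%). The median log2 ratio of the 40 was 0.11. Enzymes that make the UDP-sugar precursors differed among themselves, with a median log2 ratio of 0.11 over 7 measured, or −0.08 with the GC trend removed. By the 1.5-fold rule 1 was higher and 1 lower (13.3% and 12.2% of all genes). UAP1, which makes UDP-N-acetylglucosamine, had 871 counts against 405 and was 2.49-fold higher (2.21 to 2.81). UGDH, which makes UDP-glucuronic acid, the other building block, had 162 against 298 counts and a ratio of 0.629 (0.517 to 0.765). GFPT2, an entry enzyme of the hexosamine pathway and the most abundant of the list, had a ratio of 0.912 (0.853 to 0.975). GNPNAT1, the acetyltransferase of that pathway, had a ratio of 1.36 (1.18 to 1.57), and UGP2, which makes UDP-glucose, 1.23 (1.03 to 1.48).

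Among lysosomal exoglycosidases, which remove the last sugars, HEXA had a ratio of 0.981 (0.932 to 1.03) and GUSB, beta-glucuronidase, one of 1.12 (1.03 to 1.21). Of the receptors 3 were measured, with 1 higher by the 1.5-fold rule (13.3% of all genes). HMMR, a hyaluronan-binding protein that also acts on the mitotic spindle, had 166 against 117 counts and was 1.64-fold higher (1.29 to 2.10). LAYN, layilin, had a ratio of 1.19 (1.08 to 1.32), close to that of CD44.

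Hyaluronan-binding matrix proteins were sparse and went both ways, with 3 of 16 measured. By the 1.5-fold rule 1 was higher and 2 lower (13.3% and 12.2% of all genes). Their median log2 ratio was −1.03, and 0.11 over the 7 in the table with no minimum. PTX3, a pentraxin of hyaluronan-rich matrix, had 72 counts against 572 and a ratio of 0.146 (0.112 to 0.186). The link protein HAPLN3 had 195 against 77 counts and was 2.93-fold higher (2.24 to 3.87). Versican, VCAN, the large hyaluronan-binding proteoglycan, had 55 against 132 counts (ratio 0.482, 0.346 to 0.665). Below the 1 CPM minimum, the proteoglycan brevican, BCAN, had 20 counts against 2 (ratio 11.6, 2.81 to 102.2), and TNFAIP6, which transfers heavy chains to hyaluronan, 4 against 0.

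**Figure D4:**
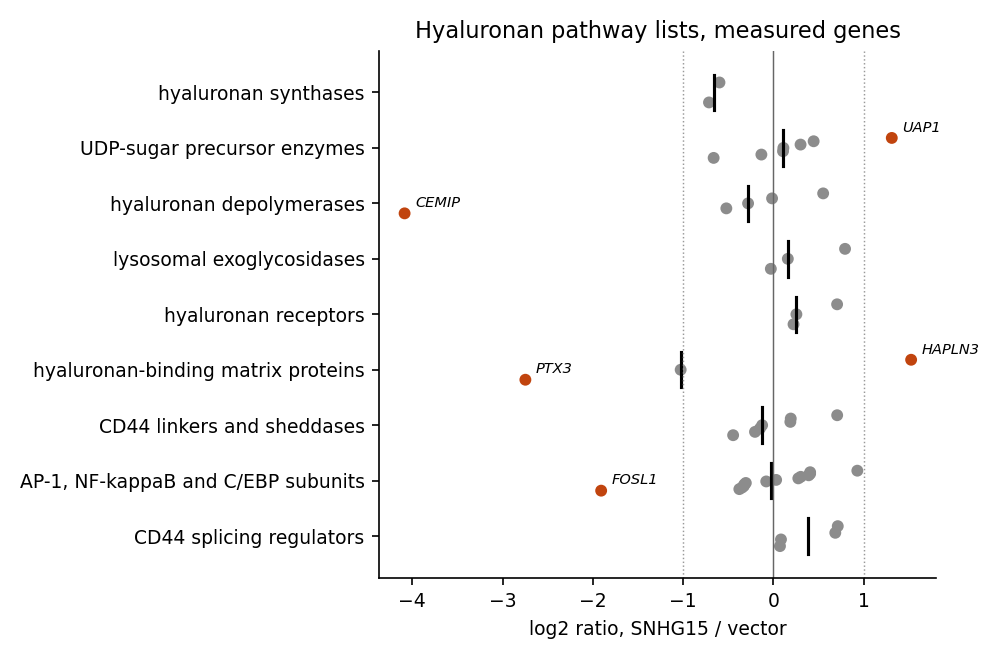
Log2 ratio (SNHG15 over vector) for the measured genes of 9 lists, 1 point a gene, with the list median as a black bar and dotted lines at 2-fold. Orange points are genes whose whole counting interval lies beyond 2-fold (UAP1 and HAPLN3 higher, CEMIP, PTX3 and FOSL1 lower).

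Linkers of CD44 to actin and the proteases that shed it numbered 7 measured, around a median log2 ratio of −0.12. By the 1.5-fold rule 1 was higher and 0 lower (13.3% and 12.2% of all genes). EZR, ezrin, had 5404 against 3833 counts and was 1.63-fold higher (1.57 to 1.70), and MSN, moesin, the most abundant linker, had a ratio of 1.14 (1.11 to 1.17). MMP14, a membrane protease that cuts CD44, had a ratio of 0.734 (0.711 to 0.758), and NF2, merlin, one of 0.917 (0.851 to 0.988). Among splicing regulators that act on CD44, 4 were measured with 2 higher (13.3% of all genes): SRSF1 at 1.64-fold (1.53 to 1.76) and TRA2B at 1.61-fold (1.498 to 1.729). KHDRBS1 (Sam68) had a ratio of 1.06 (0.987 to 1.14).

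AP-1, NF-kappaB and C/EBP subunits are transcription factors of stress and inflammatory signalling. Of 14 measured 1 was higher and 1 lower by the 1.5-fold rule (13.3% and 12.2% of all genes). Their median log2 ratio was −0.02, but 0.09 with library totals and 0.24 with the GC trend removed. FOSL1, the AP-1 subunit Fra-1, had 1298 counts against 5645 and a ratio of 0.266 (0.2504 to 0.2828), the only one beyond 2-fold. CEBPD was 1.91-fold higher (1.79 to 2.03). JUN and FOSL2 had ratios of 0.797 (0.770 to 0.825) and 0.799 (0.770 to 0.831), CEBPB one of 0.809 (0.781 to 0.838), and JUNB one of 1.02 (0.978 to 1.07).

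The genes before CEMIP on chromosome 15 were also lower. ABHD17C, a depalmitoylating enzyme gene that ends 23.7 kb before the CEMIP start, had 112 counts with SNHG15 overexpression against 428 with the vector, a ratio of 0.303 (0.244 to 0.374). ARNT2, a bHLH-PAS transcription factor gene that ends 181.4 kb before the start, had 70 and 368 counts and a ratio of 0.220 (0.168 to 0.285). Both lie on the same strand as CEMIP. They were the 2 of 6 genes measured within 500 kb that were beyond 2-fold lower, against 2.45% of all genes and 2.95% of the 407 genes of chromosome 15. By FPKM with a pseudocount of 1 the count was 0. AC023302.1, inside ABHD17C on the opposite strand, had 0 and 3 counts. At the other end no gene was beyond 2-fold. MESD, the chaperone of Wnt co-receptors, overlaps the CEMIP end on the opposite strand over 5488 bases. It had 925 and 946 counts, a ratio of 1.13 (1.03 to 1.24). Strand was not stated, so reads within this overlap may not be assigned to the right gene. TLNRD1, 49.2 kb after the CEMIP end, had a ratio of 0.900 (0.823 to 0.984), and AC068870.2 and CFAP161 had under 10 counts in each library. Farther out, TMC3-AS1 had 41 and 20 counts (ratio 2.37, 1.36 to 4.28), the 1 gene of the window higher by the 1.5-fold rule.

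**Figure D5:**
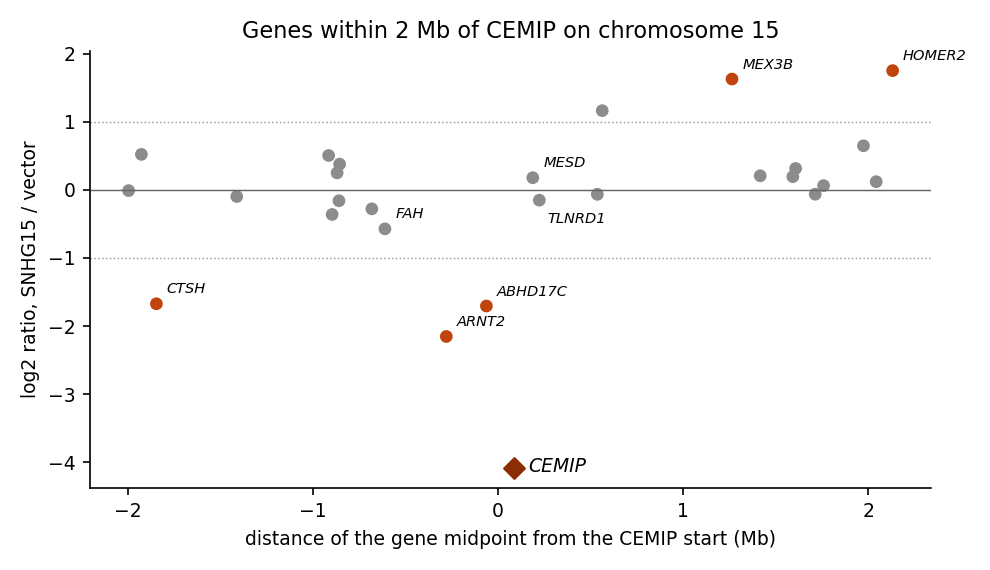
Log2 ratio (SNHG15 over vector) for measured genes within 2 Mb of CEMIP against the distance (Mb) of each gene midpoint from the CEMIP start. Orange points lie beyond 2-fold by their whole counting interval: ARNT2 and ABHD17C just before CEMIP (brown diamond), CTSH far before it, and MEX3B and HOMER2, which were higher, after it.

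In a window of 2 Mb, chosen after these values were seen, 26 genes besides CEMIP were measured, with a median log2 ratio of 0.09. Of these 3 were beyond 2-fold lower and 2 higher, against 2.45% and 2.20% of all genes. The lower gene besides ABHD17C and ARNT2 was CTSH, the lysosomal protease cathepsin H, with a ratio of 0.312 (0.279 to 0.349), 1830 kb before CEMIP. FAH, the measured gene next before ARNT2, was also lower but short of the 1.5-fold rule, with a ratio of 0.672 (0.604 to 0.746). Among measured genes, FAH, ARNT2, ABHD17C and CEMIP thus followed each other with intervals below 1, a run picked after the values were seen. The genes measured between CTSH and FAH were not lower by the 1.5-fold rule, and neither was FAH. A cause shared by these neighbours was not tested.

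Genes used as markers of stromal fibroblasts were mostly lower, as CEMIP was. In RNA of a cultured line these genes do not by themselves show that fibroblasts were present. Of 8 such markers 5 were measured, 4 of them lower by the 1.5-fold rule and 0 higher (12.2% and 13.3% of all genes), and their summed level was 681.2 CPM with SNHG15 overexpression against 1647 CPM with the vector. COL1A2 had a ratio of 0.137 (0.127 to 0.147) and COL1A1 one of 0.484 (0.473 to 0.495). None of the 5 was at 0 in either library, and DCN, LUM and PDPN had no row under those symbols. Haematopoietic markers summed to 12.0 and 37.2 CPM, mostly CD68 and CD14, and endothelial markers to 0.232 and 3.75 CPM, almost all TEK. PTPRC and PECAM1 had no row under those symbols. Luminal markers summed to 955.2 and 1480 CPM, mostly KRT18 (ratio 0.585, 0.573 to 0.598), with KRT19 at 0 counts with SNHG15 overexpression against 23 with the vector. Basal markers summed to 79.9 and 103.5 CPM, mostly EGFR, while KRT14 had 28 against 302 counts and KRT5 27 against 7. Epithelial markers summed to 1.91 and 3.90 CPM, with CLDN7 at 2 against 40 counts. Mesenchymal markers summed to 3399 and 3203 CPM, most of it VIM at a ratio of 1.002 (0.988 to 1.02), but their median log2 ratio was −0.37. Of these 6, CAV1, TWIST1 and ZEB1 were lower by the 1.5-fold rule, with ratios of 0.518, 0.597 and 0.590, and SPARC was 1.78-fold higher. The part of these lists in the CEMIP difference was not tested.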

How the data were processed

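Total RNA of 1 library per group was sequenced. The deposited counts are whole numbers per gene, per the file headers, and on hg38, per the submitters' processing notes. FPKM values were deposited by the authors and scale with library totals. The authors' deposited log2 ratio is that of FPKM with no pseudocount. The deposited p-values were made with edgeR, as the table's name says, and were used only to check the authors' calls. Aligner, counter, strand and annotation release were not stated in the sources used here.

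CPM was computed with TMM factors (edgeR 4.0.16, R 4.3.3; 1.04 for the SNHG15 and 0.960 for the vector library). Ratios have exact conditional-binomial 95% intervals, and log2 ratios a prior count of 2. The comparison took genes averaging 1 CPM or more. Gene lists named above were described by counts and medians. Named genes were the 8 members, list members beyond 2-fold and up to 4 abundant others, neighbours and overlapping genes of the members, and the 5 genes nearest to CEMIP in log2 ratio. CTSH, FAH, MEX3B, HOMER2, TMC3-AS1, UGDH, CEBPD, BCAN, TNFAIP6, KRT5 and some markers were named after their values were seen. Members, lists and tests were chosen with earlier results of these data known. Also run were library totals, DESeq2 1.42.0 size factors, other minimums and prior counts, FPKM with pseudocounts, point ratios, thinning, and, added after seeing the data, removal of the GC trend (GENCODE 29 transcripts), other gene lengths and the wider window. One gene of the pathway lists is not reported here.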

Additional observations from a re-analysis of the deposited data

How the results depend on the processing

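CEMIP was the only one of the 8 genes beyond 2-fold, and on the lower side, under each alternative run. Its log2 ratio of −4.09 was −3.97 by library totals, −3.88 by FPKM with a pseudocount of 1, −3.96 by FPKM with a pseudocount of 0.1 and −4.05 with the GC trend removed. The 3 genes past 1.5-fold depended on the setting: only CEMIP (1 gene) was left by FPKM with a pseudocount of 1, CEMIP2 (higher) came in and HAS3 went out by library totals, HAS3 also went out with the GC trend removed, CEMIP and CEMIP2 were left by FPKM with a pseudocount of 0.1, and HAS2 was not compared at a minimum of 5 CPM. By library totals the median over all genes moved from 0.02 to 0.13 (log2). HYAL2 was the one gene of the 8 whose log2 ratio changed sign, from −0.06 to 0.23 over the alternatives. The 602 genes beyond 2-fold became 394 with a minimum of 5 CPM, 302 and 968 by FPKM with pseudocounts of 1 and 0.1, and 1334 by point ratios. Shares among the hyaluronan-cutting genes moved with the length used: CEMIP held 33.1% (counts) or 20.8% (longest transcript) in the SNHG15 library and 89.4% or 81.05% in the vector library, and HYAL2 52.6% or 60.1% and 8.45% or 13.9%. CD44 took place 2 in place of 3 in the vector library by the longest transcript. The count of CEMIP neighbours within 500 kb beyond 2-fold lower was 2 under each alternative of scaling, minimum, call rule and depth but FPKM with a pseudocount of 1, which gave 0. Of 186 other values recomputed, 149 stayed within counting error or 1.5 times of the reported one and 37 moved. Some of the 149 could not move, since a minimum does not change a gene's own ratio. No paired analysis was possible because each group holds 1 library. At these depths HAS2, with 43 and 83 counts, is the least certain of the 8.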
